A study of Mus musculus with 14 samples.

Results

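The 39 genes described here carry cells through G2 and mitosis. They were chosen by name for that role, with earlier results of these data known. They were sought in RNA sequencing data from αTN4-1, a mouse lens epithelial line that was immortalised with a viral T antigen. All 39 were found among the 40853 gene identifiers of the deposited tables. All 39 also reached a mean of 1 TPM (transcripts counted per fixed total of transcripts, a level corrected for gene length), as 12927 genes did, so none was lost to the filter on low values. There were 7 stable lines, each with 1 library from cells given 20 ng/mL TGFβ for 24 h and 1 control library, which makes 14 libraries. The lines labelled KCREB and S133A-KCREB carry K, a form of the transcription factor CREB with a change in its DNA-binding region, which cannot bind DNA and pairs with intact CREB. Those labelled R314A-CREB and S133A/R314A-CREB carry R314A, a change in the basic leucine zipper (bZIP) that is known to keep CRTC coactivators from binding. Those labelled WT-CREB and S133A-CREB have an intact bZIP, and the label Vector names no CREB construct. S133A takes away the phosphorylation site of protein kinase A. All lines were kept under neomycin selection, and the sources used here do not say whether a line is 1 clone. TGFβ was given in medium without serum, and the serum state of the control cultures is not given, so TGFβ and loss of serum cannot be told apart.

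Entry into mitosis is driven by CDK1 bound to cyclin B. Aurora and Polo-like kinases, kinesins and kinetochore proteins then build the spindle, the checkpoint holds anaphase until each chromosome is attached, and the anaphase-promoting complex (APC) destroys cyclin B and securin. Genes of this programme are transcribed together late in the cell cycle. They are repressed in resting cells by the DREAM complex, which binds the cell cycle genes homology region (CHR) of their promoters, and are activated by B-MYB and FOXM1. In a lens, mitosis is known to be restricted to the epithelium. In bulk RNA, fewer cycling cells and less RNA per cell cannot be told apart.

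Some facts of the libraries bear on every value below. Creb1 lay below Vector in 4 of the 6 lines labelled with a CREB construct. It lay at 25.8 to 38.3 TPM in the 4 libraries of the K lines, but at 5.89 to 9.04 TPM in the R314A lines and 4.43 to 11.6 TPM in the lines with an intact bZIP, below the 20.8 to 23.1 TPM of Vector. The species of the constructs is not given, so Creb1 may not count all reads of a construct. The lines are therefore named as labelled. Depth, judged from coverage per FPKM, spanned 5.03 to 10.1 over the libraries, and mitochondrially encoded genes took 5.59% to 10.8% of TPM. Of 10 lens epithelial markers, 7 were measured at 1 TPM or more on average, among them Pax6 at 117 TPM and Cryab at 654 TPM. Foxe3, Cdh1 and Gja1, which also mark lens epithelium, averaged under 0.1 TPM. With 1 library for each line and treatment, the lines are the replicates. For TGFβ, p-values rest on the spread of the differences within lines. For K, R314A and S133A they rest on the spread between the means of 6 lines. So few means can detect few differences, and 0 calls there do not show that levels are equal.

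The mitotic genes were abundant in every library. Their mean level over the 14 libraries ran from 32.4 TPM for Cdc25c, the phosphatase that activates CDK1, to 285 TPM for Racgap1, which works with RhoA at the cleavage furrow. Among the others at a high level were Ube2c (264 TPM), the ubiquitin-conjugating enzyme of the APC, Top2a (262 TPM), the topoisomerase that untangles sister chromatids, and Anln (261 TPM), the anillin scaffold of the contractile ring. The 39 levels together summed to 4131 to 5841 TPM per library. The median SD of log2(TPM + 1) over the 14 libraries was 0.225 for the 39 genes. For 5533 other genes in the same range of mean TPM it was 0.254. The highest library stood 1.35 times above the lowest for Tpx2, a spindle assembly factor, and 2.28 times above it for Bub1b, the BUBR1 checkpoint kinase, which mark the extremes of that ratio.

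Most of the variation lay between lines. Of each gene's sum of squares on the log2(TPM + 1) scale, the median share between lines was 87.8% for the 39 genes, with 2.90% between treatments and 7.66% left over. For 5533 other genes in the same range of mean TPM the medians were 73.6%, 13.4% and 8.67%. Aurka, the Aurora A kinase of the centrosome, and Bub1b differed from the rest of the group, with treatment shares of 49.0% and 43.3%. At the other end stood Mad2l1, the MAD2 checkpoint protein, with 98.0% of its variation between lines. The line labelled WT-CREB held the lowest mean level in 17 genes and S133A-CREB in 14. The line labelled S133A-KCREB held the highest in 18, R314A-CREB in 10 and Vector in 5.

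**Figure D1:**
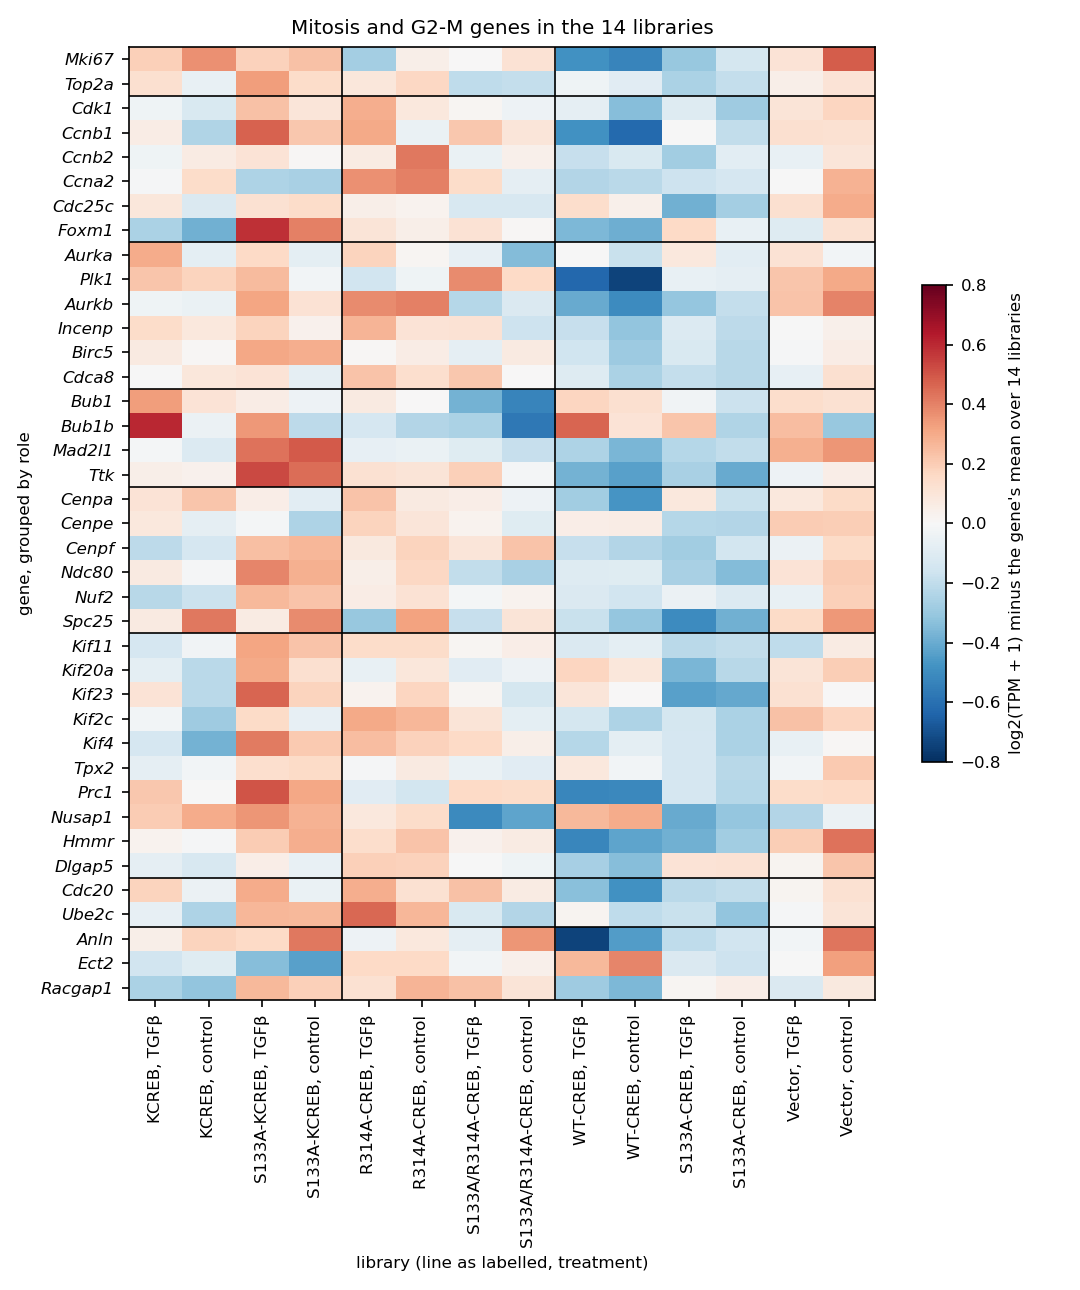
Level of each of the 39 genes (rows, grouped by role) in each of the 14 libraries (columns), as log2(TPM + 1) minus the gene's mean over the 14 libraries. Blue cells gather in the 4 libraries of WT-CREB and S133A-CREB, and red cells in the 2 of S133A-KCREB.

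The genes moved together across libraries only in part. Over the 14 libraries the median Pearson correlation between pairs of the 39 was 0.476, and 638 of 741 pairs lay above 0. The closest pair was Top2a and Ndc80, a kinetochore protein that grips microtubules, at 0.954. The most opposed was Prc1, the bundler of midzone microtubules, and Ect2, the exchange factor for RhoA, at −0.66. Ect2 correlated at −0.37 with the median of the other members and Bub1b at −0.06. The lowest positive values were those of Bub1 (0.23), the checkpoint kinase that phosphorylates histone H2A, Nusap1 (0.23), a microtubule stabiliser, and Aurka (0.29). Libraries of 1 line share their cells, so these correlations describe the data and are not tested. Genes outside the cell cycle lists that averaged at least 5 TPM and had a name other than a predicted one numbered 9893. Of these, the most like the median of the group were Cep78 (r = 0.934), Zfp825 (0.892) and Hr (0.882) over the 14 libraries.

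The promoters of the group were searched for the motifs of the late cell cycle. RefSeq promoter windows (GRCm38.p6, 250 bases before to 50 after the start, the first window listed for each gene) were at hand for 31 of the 39 genes. A CHR, searched as TTTGAA or TTCGAA on both strands, was found in 25 of the 31 (80.6%), against 19.4% of 27025 windows of all genes. CCAAT, the site of the factor NF-Y, was found in 24 (77.4%) against 37.9%, and at least 2 copies of it in 17 (54.8%) against 12.2%. Both motifs occurred in 22 windows (71%) against 7.7%. The CREB half-site TGACG was found in 9 (29%) against 21%, and the full site TGACGTCA, which contains that half-site, in 2 (6.45%) against 1.88%. These are matches of letters in a window, which do not show binding.

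The bases just before the start are printed for 8 genes on which the results below turn or which are classical members of the programme, 5′ to 3′ on the gene's strand, with CHR and CCAAT matches on either strand in capitals.
Cdk1, chr10:69352913-69353042, minus strand: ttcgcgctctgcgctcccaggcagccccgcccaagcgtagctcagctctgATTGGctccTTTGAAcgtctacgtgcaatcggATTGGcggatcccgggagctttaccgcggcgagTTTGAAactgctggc
Top2a, chr11:99024190-99024319, minus strand: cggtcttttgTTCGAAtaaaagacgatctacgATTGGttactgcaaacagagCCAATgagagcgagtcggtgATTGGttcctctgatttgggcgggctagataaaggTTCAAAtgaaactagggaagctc
Cdc20, chr4:118437344-118437473, minus strand: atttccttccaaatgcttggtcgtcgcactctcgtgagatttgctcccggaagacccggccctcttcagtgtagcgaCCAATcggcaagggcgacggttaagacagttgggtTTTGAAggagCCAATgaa
Prc1, chr7:80294321-80294450, plus strand: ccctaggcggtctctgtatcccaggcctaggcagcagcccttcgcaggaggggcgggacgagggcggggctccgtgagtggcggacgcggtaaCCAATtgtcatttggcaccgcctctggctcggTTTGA
Mki67, chr7:135716380-135716509, minus strand: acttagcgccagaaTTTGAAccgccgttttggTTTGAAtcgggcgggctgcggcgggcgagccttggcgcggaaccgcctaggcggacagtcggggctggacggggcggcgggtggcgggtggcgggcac
Ttk, chr9:83834559-83834688, plus strand: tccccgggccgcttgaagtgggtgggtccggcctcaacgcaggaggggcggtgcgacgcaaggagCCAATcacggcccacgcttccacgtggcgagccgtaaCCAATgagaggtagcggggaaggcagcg
Ccnb1, chr13:100786487-100786616, minus strand: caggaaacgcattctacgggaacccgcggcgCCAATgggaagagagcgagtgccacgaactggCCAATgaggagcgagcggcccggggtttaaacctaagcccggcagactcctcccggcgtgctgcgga
Bub1b, chr2:118598081-118598210, plus strand: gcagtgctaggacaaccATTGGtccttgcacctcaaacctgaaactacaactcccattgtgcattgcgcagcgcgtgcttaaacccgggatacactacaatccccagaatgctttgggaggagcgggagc
The last letter of the CHR of Prc1 is the first base after the printed stretch. The window of Ttk holds a CHR just after the start and that of Bub1b a pair outside the printed bases, while the window of Ccnb1 holds none by this search.

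The K and R314A lines were then set against those with an intact bZIP. The levels of many mitotic genes were higher in both kinds of line, but no single gene passed the test. In limma on line means of log2(TPM + 1), the S133 state was a term. For K 0 of the 39 genes had an adjusted p under 0.05, as was so for 0% of the 12927 genes. An unadjusted p under 0.05 was found for 8 of the 39, against 1310 of the 12927. For R314A 0 passed, again 0% of all genes. Here 7 of the 39 had an unadjusted p under 0.05, against 821 of the 12927. The median difference over the 39 was 0.25 for K (log2), against −0.03 over all genes tested, and 0.29 for R314A, against −0.02. The median for K was 0.07 without the line S133A-KCREB and 0.42 without KCREB. That for R314A was 0.12 without R314A-CREB and 0.39 without S133A/R314A-CREB. The K and R314A comparisons share the libraries with an intact bZIP.

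The libraries were also compared without a model. The 4 libraries of a group come from 2 lines, and the 39 genes are correlated, so neither libraries nor genes are independent replicates. The 39 also had more of their variation between lines (median 87.8%, against 73.2% for all genes tested). They were also chosen with earlier results of these data known. The part of these facts in the counts was not tested. In 15 of the 39 genes (38.5%) all 4 libraries of the K lines lay above all 4 with an intact bZIP, as was so for 5.11% of all genes tested. In 0 of the 39 they lay all below, against 9.0% of all genes. For R314A the count above was 16 (41.0%), against 5.26%, and the count below 0, against 6.55%. Without the line KCREB the K count was 28 of the 39, against 15.2% of all genes. It was 17 without S133A-KCREB, against 13.0%. The R314A count was 25 of the 39 without S133A-CREB, against 20.7%, and 20 without R314A-CREB, against 14.1%. Paired by S133 state, K lines were higher in both pairs in 26 genes (66.7%) against 23.8% of all genes, and lower in both in Ect2 alone, against 31.3%. R314A lines were higher in both pairs in 30 genes (76.9%) against 25.0%, and lower in both in Bub1, Bub1b and Nusap1, against 28.8%.

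Taken by role, the genes that stood apart were as follows. Of the 6 mitotic kinases and passenger complex genes, 5 lay apart in the K lines, namely Plk1, a Polo-like kinase, Aurkb, the Aurora B kinase, and its partners Incenp, Birc5 (survivin) and Cdca8 (borealin). Of these, Birc5 and Cdca8 did so in the R314A lines. Of the 6 genes of CDK1 and its regulators, Cdk1, Ccnb2 and Ccna2 (cyclins B2 and A2) lay apart in the R314A lines, and Ccnb2 alone in the K lines. Among the 4 checkpoint genes it was Mad2l1 and Ttk in each comparison. Among the 6 centromere and kinetochore genes it was Ndc80 and Spc25 in the K lines, and Cenpf and Nuf2 in the R314A lines. Among the 10 kinesins and spindle assembly genes, Prc1 and Hmmr lay apart in the K lines. In the R314A lines it was Hmmr with 3 motor genes, Kif11 (Eg5, which pushes the poles apart), Kif2c (MCAK, which takes microtubules down) and Kif4, a chromosome-bound kinesin. Cdc20, the APC activator, and Anln lay apart in each comparison, and Racgap1 in the R314A lines. Mki67, the Ki-67 antigen that coats mitotic chromosomes, lay apart in the K lines. These counts are descriptions, and differences between roles were not tested. Exosc9 (84.4 TPM) overlaps Ccna2 and Pdzd11 (63.6 TPM) overlaps Kif4 on the opposite strand. They differed by −0.09 and 0.21 in the R314A comparison, and the reads of each pair cannot be told apart.

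**Figure D2:**
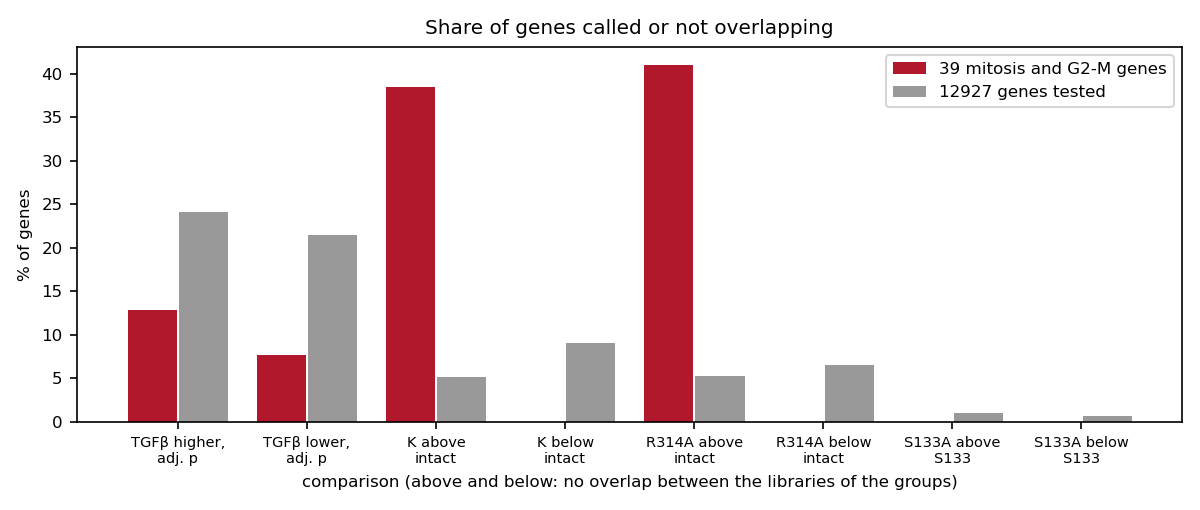
Share of genes (%) that passed limma for TGFβ or whose groups of libraries did not overlap, for the 39 mitosis and G2-M genes beside all 12927 genes tested. The share above the intact bZIP is 38.5% for K and 41.0% for R314A, against 5.11% and 5.26% of all genes, while the shares called for TGFβ lie below those of all genes.

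Ttk, the MPS1 kinase that starts checkpoint signalling (chromosome 9, 83716704 to 83754443, plus strand, GRCm39), showed the highest difference in the K lines. Its levels under TGFβ and in control were 102.4 and 101.6 TPM in KCREB and 143.6 and 135.7 TPM in S133A-KCREB. They were 75.9 and 73.1 TPM in WT-CREB and 82.8 and 74.8 TPM in S133A-CREB. All K libraries lay above these, and Vector (96.3 and 103 TPM) lay near KCREB. The K difference was 0.63 ± 0.18 (log2, SE, 95% interval 0.17 to 1.10, limma adjusted p = 0.379). In the R314A lines Ttk stood at 107.8 and 106.7 TPM in R314A-CREB and 113.2 and 98.2 TPM in S133A/R314A-CREB, again all above the intact bZIP. That difference was 0.47 ± 0.18 (interval 0.01 to 0.93, adjusted p = 0.785).

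Mki67 (chromosome 7, 135291513 to 135318286, minus strand) reached 174 and 197 TPM under TGFβ and in control in KCREB and 173 and 179.7 TPM in S133A-KCREB. It had 108 and 105 TPM in WT-CREB and 123 and 138 TPM in S133A-CREB, so the groups did not overlap. The K difference was 0.61 ± 0.16 (interval 0.20 to 1.02, limma adjusted p = 0.353). Prc1 (chromosome 7, 79944024 to 79966007, plus strand) had 246 and 212 TPM in KCREB and 302 and 263 TPM in S133A-KCREB, against 147.6 and 148.2 TPM in WT-CREB and 193 and 181 TPM in S133A-CREB. Here too each K library exceeded each one with an intact bZIP. The K difference of Prc1 was 0.61 ± 0.14 (interval 0.25 to 0.96, adjusted p = 0.315). When all 12 CREB libraries were fitted with line as a random block, Prc1 was the 1 gene of the 39 that passed for K (adjusted p = 0.0445). In that fit 41 of all genes (0.317%) were called higher and 100 (0.774%) lower. It counts the 2 libraries of a line as partly independent, with 1 correlation shared by all genes. For Prc1 95.7% of the variation lay between lines, against a median of 73.2% over all genes tested. Reads of Prc1 and of Rccd1, which overlaps it on the opposite strand at 5.99 TPM, cannot be told apart, since the strandedness of the libraries is not given.

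Ect2 (chromosome 3, 27151371 to 27208402, minus strand) was the gene that lay lower in both K pairs. It had 118 and 123 TPM under TGFβ and in control in KCREB and 104 and 97.3 TPM in S133A-KCREB. In WT-CREB it had 158 and 173 TPM and in S133A-CREB 121 and 117 TPM. The S133A-CREB libraries overlapped the KCREB ones. The K difference was −0.35 ± 0.16 (interval −0.75 to 0.06, limma adjusted p = 0.542), and that for R314A was −0.01 ± 0.16 (interval −0.41 to 0.40, adjusted p = 0.997).

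Hmmr, a spindle pole protein that also binds hyaluronan (chromosome 11, 40592215 to 40624290, minus strand), had the highest difference in the R314A lines. It stood at 85.9 and 91.3 TPM under TGFβ and in control in R314A-CREB and 79.7 and 81.6 TPM in S133A/R314A-CREB, against 53.8 and 57.8 TPM in WT-CREB and 59.4 and 64.0 TPM in S133A-CREB. Every R314A library was above every one with an intact bZIP, and Vector (89.2 and 105 TPM) was above them as well. The R314A difference was 0.52 ± 0.17 (interval 0.08 to 0.96, limma adjusted p = 0.766). Cdc20 (chromosome 4, 118290098 to 118294540, minus strand) had 222 and 197 TPM in R314A-CREB and 214 and 189.99 TPM in S133A/R314A-CREB. It had 144 and 129 TPM in WT-CREB and 156 and 158 TPM in S133A-CREB, with no overlap. The difference was 0.49 ± 0.15 (interval 0.10 to 0.87, adjusted p = 0.756). Elovl1 overlaps Cdc20 on the opposite strand at 132 TPM, and it differed by 0.32 in the same comparison (adjusted p = 0.823).

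Bub1b and Bub1 lay the other way in the R314A lines, below the intact bZIP in both matched pairs. Bub1b (chromosome 2, 118428684 to 118472073, plus strand) had 73.2 and 68.1 TPM under TGFβ and in control in R314A-CREB and 67.3 and 53.8 TPM in S133A/R314A-CREB. In WT-CREB it had 111.5 and 86.9 TPM and in S133A-CREB 93.95 and 67.9 TPM. The S133A-CREB control overlapped the R314A libraries. The R314A difference was −0.44 ± 0.15 (interval −0.82 to −0.06, limma adjusted p = 0.773). Bub1 (chromosome 2, 127642117 to 127673790, minus strand) had 57.8 and 55.2 TPM in R314A-CREB and 42.2 and 37.7 TPM in S133A/R314A-CREB, against 62.2 and 60.1 TPM in WT-CREB and 53.8 and 48.7 TPM in S133A-CREB. Its groups overlapped, and the difference was −0.23 ± 0.17 (interval −0.66 to 0.20, adjusted p = 0.873). Nusap1 differed by −0.14 ± 0.23 in the R314A lines (limma adjusted p = 0.940), and its sign turned when WT-CREB (0.05) or S133A/R314A-CREB (0.01) was left out. Oip5, which overlaps Nusap1 on the opposite strand at 30.7 TPM, differed by −0.37 (limma adjusted p = 0.848).

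A further 10 genes neither passed for TGFβ nor lay wholly apart by bZIP state. Foxm1, the transcription factor of the late programme, had 122 and 111.5 TPM under TGFβ and in control in KCREB and 219 and 193 TPM in S133A-KCREB. In R314A-CREB it had 156 and 150.5 TPM and in S133A/R314A-CREB 158 and 147 TPM, against 113.5 and 110.8 TPM in WT-CREB and 163 and 139.7 TPM in S133A-CREB. The S133A-KCREB libraries stood above all others, and the rest overlapped. The other 9 were Top2a, Cdc25c, Cenpa, the centromeric histone H3, Cenpe, a kinetochore motor, Kif20a and Kif23, kinesins of the central spindle, Tpx2, Dlgap5, which binds spindle microtubules, and Ube2c. Over the 10 genes the K difference ran from 0.02 for Cenpe to 0.32 for Kif23, and the R314A difference from 0.05 for Tpx2 to 0.29 for Cenpa (log2). Under TGFβ the 10 ran from −0.02 for Tpx2 to 0.12 for Kif23, and the lowest adjusted p was 0.0972, for Ube2c.

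**Figure D3:**
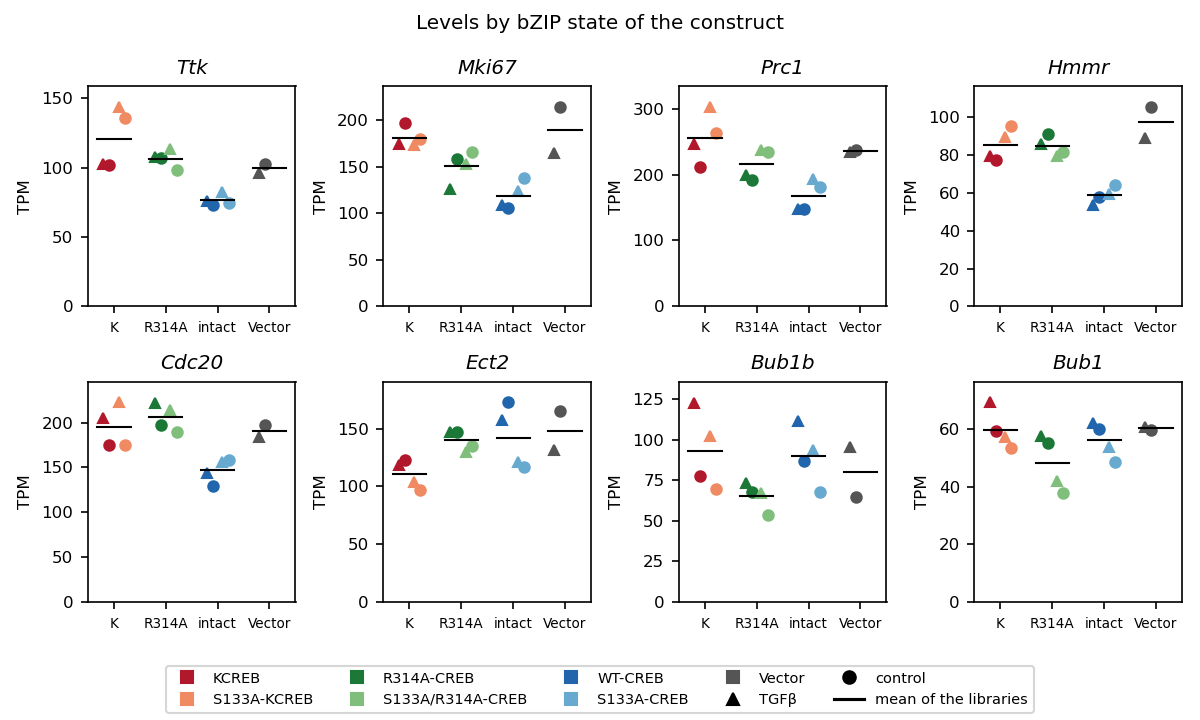
Level (TPM, linear axis from 0) of 8 genes in each library, grouped by the bZIP state of the line as labelled, with triangles for TGFβ, circles for control and a bar at the mean of the libraries. For Ttk, Hmmr and Cdc20 every K and R314A library lies above every library with an intact bZIP, while Ect2, Bub1b and Bub1 do not follow that order.

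Other measures of the same libraries were set beside these groups. The summed level of the 39 genes was 4824 to 5841 TPM in K libraries, 4850 to 5371 TPM in R314A libraries and 4131 to 4436 TPM with an intact bZIP. Creb1, as given above, was higher in the K lines than in the intact bZIP lines, but the R314A lines overlapped the intact ones in Creb1. Coverage per FPKM was 6.11 to 7.73 in K, 5.03 to 9.0 in R314A and 6.28 to 10.1 with an intact bZIP, and the mitochondrial share 6.75% to 8.61%, 5.59% to 8.20% and 5.75% to 10.8%. The 10 lens epithelial markers summed to 585 to 2295 TPM in K, 520.4 to 1248 TPM in R314A and 415 to 681 TPM with an intact bZIP. Coverage, the mitochondrial share and the marker sum thus overlapped between each altered group and the intact one. The part of these measures in the result was not tested. Libraries of Vector, at 5058 to 5555 TPM summed over the 39 genes, lay above those with an intact bZIP.

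The S133A state was compared as well, with 6 libraries set against 6, a rule that fewer genes pass than 4 against 4. In limma 0 of the 39 genes passed, as did 0% of all genes, and Prc1 alone had an unadjusted p under 0.05, among 753 genes. The median difference was −0.03, against 0.01 over all genes tested. In 0 of the 39 genes did the 6 S133A libraries lie all above the 6 with intact S133, against 1.05% of all genes, and in 0 all below, against 0.596%. Both shares of all genes are so low that 0 of the 39 is close to them. Ccnb1 (cyclin B1), Prc1 and Anln were higher in all 3 matched pairs of lines (7.69% of the 39, against 14.8% of all genes), by 0.31 ± 0.14, 0.30 ± 0.11 and 0.24 ± 0.13 (adjusted p = 0.809, 0.809 and 0.811 in limma). In all 3 pairs 6 genes were lower (15.4%, against 13.5%), among them Bub1 by −0.32 ± 0.14, Ect2 by −0.29 ± 0.13 and Bub1b by −0.24 ± 0.12, each with an adjusted p of 0.809.

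Each CREB line was also set beside Vector, with 1 library a side and no test. All of these differences share the 2 Vector libraries. In WT-CREB 7 of the 39 genes (17.9%) were lower by at least 1.5-fold in both treatments, against 9.0% of all genes, and 0 were higher, against 6.74%. The 7 were Anln, Aurkb, Ccnb1, Hmmr, Mki67, Plk1 and Prc1. Plk1 showed this clearly, at 93.8 and 87.0 TPM under TGFβ and in control in WT-CREB, against 169.98 and 180.3 TPM in Vector. In S133A-CREB Spc25, a subunit of the NDC80 complex, was lower, at 55.2 and 60.1 TPM against 87.6 and 100.5 TPM (1 of 39, against 4.03% of all genes), and 0 were higher, against 8.88%. In the other 4 lines 0 of the 39 passed in either direction. The shares of all genes higher and lower there were 1.88% and 3.52% in KCREB, 2.78% and 3.37% in R314A-CREB, 5.75% and 6.75% in S133A-KCREB, and 4.87% and 5.39% in S133A/R314A-CREB. The median over the 39 genes against Vector was −0.17 under TGFβ and −0.38 in control for WT-CREB, and −0.18 and −0.37 for S133A-CREB. It was 0.17 and −0.01 for S133A-KCREB, 0.12 and −0.02 for R314A-CREB, −0.03 and −0.22 for KCREB, and −0.05 and −0.24 for S133A/R314A-CREB. Over all genes tested these medians ran from −0.04 (S133A-KCREB, control) to 0.06 (S133A-CREB, control). In control 34 of the 39 genes lay below Vector in WT-CREB and in KCREB, 38 in S133A-CREB and 35 in S133A/R314A-CREB, against 21 in S133A-KCREB and in R314A-CREB. The shares of all genes below Vector are not given here.

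TGFβ changed few of the mitotic genes. In limma with the line as a block, 5 of the 39 (12.8%) rose, against 24.1% of all genes tested, and 3 (7.69%) fell, against 21.4%. A further 4 had an unadjusted p under 0.05, which 12 of the 39 had in all. Of the 12927 genes tested 6908 had one, which is the larger share. The median difference over the 39 was 0.02, the same as over all genes to 2 decimals, and it turned to −0.003 with median-of-ratios scaling and with quantile normalization. Aurka, Bub1, Bub1b, Ccnb1 and Kif2c were higher in all 7 lines (12.8%, against 18.5% of all genes), and Anln was lower in all 7 (2.56%, against 15.9%). The number that rose was 8 without Vector and 3 without KCREB, S133A-KCREB or S133A/R314A-CREB. The number that fell was 1 without KCREB, R314A-CREB or S133A/R314A-CREB and 2 without Vector or S133A-CREB. The shares of all genes called without a line are not given here, so these numbers have no background beside them.

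**Figure D4:**
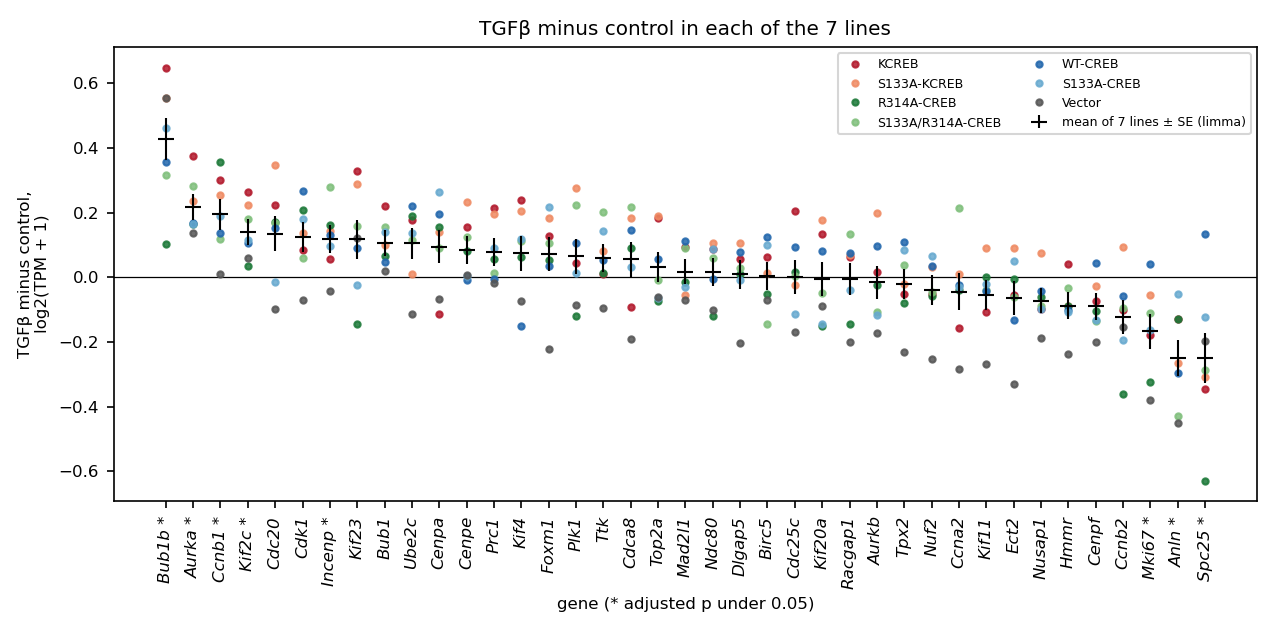
Difference between TGFβ and control in log2(TPM + 1) for each of the 39 genes, with a dot for each of the 7 lines and a bar for their mean ± SE from limma. Genes run from the highest mean, Bub1b at 0.43, to the lowest, Spc25 at −0.25, and most means lie within 0.15 of 0.

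Bub1b rose most. Its level over the 7 lines had a minimum, median and maximum of 67.3, 95.8 and 122.5 TPM under TGFβ, against 53.8, 68.1 and 86.9 TPM in control. The 2 treatments overlapped, but TGFβ was higher within each line, by 0.10 in R314A-CREB to 0.65 in KCREB (log2). The mean difference was 0.43 ± 0.06 (SE, limma adjusted p = 0.000963). Aurka (chromosome 2, 172198110 to 172212820, minus strand) had 96.7, 109.9 and 124.7 TPM under TGFβ, against 79.3, 95.9 and 102 TPM in control. It rose by 0.22 ± 0.04 (adjusted p = 0.00261), and by 0.14 to 0.37 in the single lines. Cstf1, which overlaps Aurka on the opposite strand at 45.0 TPM, differed by 0.03 (adjusted p = 0.784).

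The other genes that rose did so by less. Ccnb1 (chromosome 13, 100915247 to 100922994, minus strand) had 129.5, 199 and 253 TPM as minimum, median and maximum under TGFβ, against 118, 175 and 212 TPM in control. It rose by 0.20 ± 0.05 (limma adjusted p = 0.00899), with 0.01 in Vector and 0.36 in R314A-CREB as the extremes. Kif2c (chromosome 4, 117016830 to 117039821, minus strand) had 69.9, 83.1 and 95.7 TPM under TGFβ, against 63.3, 73.2 and 93.3 TPM in control, a rise of 0.14 ± 0.04 (adjusted p = 0.0205). Its call was lost without KCREB, S133A/R314A-CREB or S133A-KCREB (adjusted p = 0.0509, 0.0532 and 0.0568). Incenp, the scaffold of the passenger complex (chromosome 19, 9849659 to 9876853, minus strand), had 124, 153 and 170.1 TPM under TGFβ, against 113, 144 and 152 TPM in control. Its rise of 0.12 ± 0.04 was close to the threshold (adjusted p = 0.0481), held in 6 of 7 lines and was lost with median-of-ratios scaling (adjusted p = 0.112). So it was with FPKM, quantile normalization, no filter, no intensity trend or no mitochondrially encoded genes (adjusted p = 0.0613 to 0.0792). It was also lost without any 1 line other than Vector (adjusted p = 0.0598 without KCREB to 0.126 without S133A/R314A-CREB). Bub1 missed the threshold at 0.11 ± 0.04 (adjusted p = 0.0511), although it was higher in 7 of 7 lines. Cdk1 did so as well, at 0.12 ± 0.05 (adjusted p = 0.0531), higher in 6 of 7.

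Anln, Spc25 and Mki67 fell. Anln (chromosome 9, 22242510 to 22302132, minus strand) had 152, 248 and 285 TPM under TGFβ, against 187, 288 and 343 TPM in control. The difference was −0.25 ± 0.06 (limma adjusted p = 0.00634) and ran from −0.45 in Vector to −0.05 in S133A-CREB. The antisense gene 9530077C05Rik overlaps Anln at 13.4 TPM and fell by 0.56 (adjusted p = 0.00121), and the reads of the pair cannot be told apart. Spc25 (chromosome 2, 69009753 to 69036583, minus strand) had 55.2, 69.6 and 87.6 TPM under TGFβ, against 60.1, 98.8 and 105.7 TPM in control. It fell by 0.25 ± 0.08 (adjusted p = 0.0251) and was lower in 6 of 7 lines, with WT-CREB at 0.13. Its call was lost without R314A-CREB, S133A/R314A-CREB, KCREB or S133A-KCREB (adjusted p = 0.0533 to 0.0602). Mki67 had 108, 153 and 174 TPM under TGFβ, against 105, 165 and 213 TPM in control. It fell by 0.17 ± 0.05 (adjusted p = 0.0309), lower in 6 of 7 lines, with Vector at −0.38 and WT-CREB at 0.04. Its call was lost without S133A/R314A-CREB, S133A-CREB, KCREB, R314A-CREB or Vector (adjusted p = 0.0512 to 0.0844). An exact two-sided sign-flip permutation test over the 7 lines gave p = 0.0156, the smallest it can give, for Bub1b, Aurka, Ccnb1, Kif2c and Anln, 0.03125 for Incenp and Mki67, and 0.0469 for Spc25. Among genes that limma did not call, it gave 0.0156 for Bub1 and 0.0469 for Cdk1, Cenpf, Hmmr and Ube2c. The test uses the same differences as limma and is not adjusted, so it adds no separate support.

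**Figure D5:**
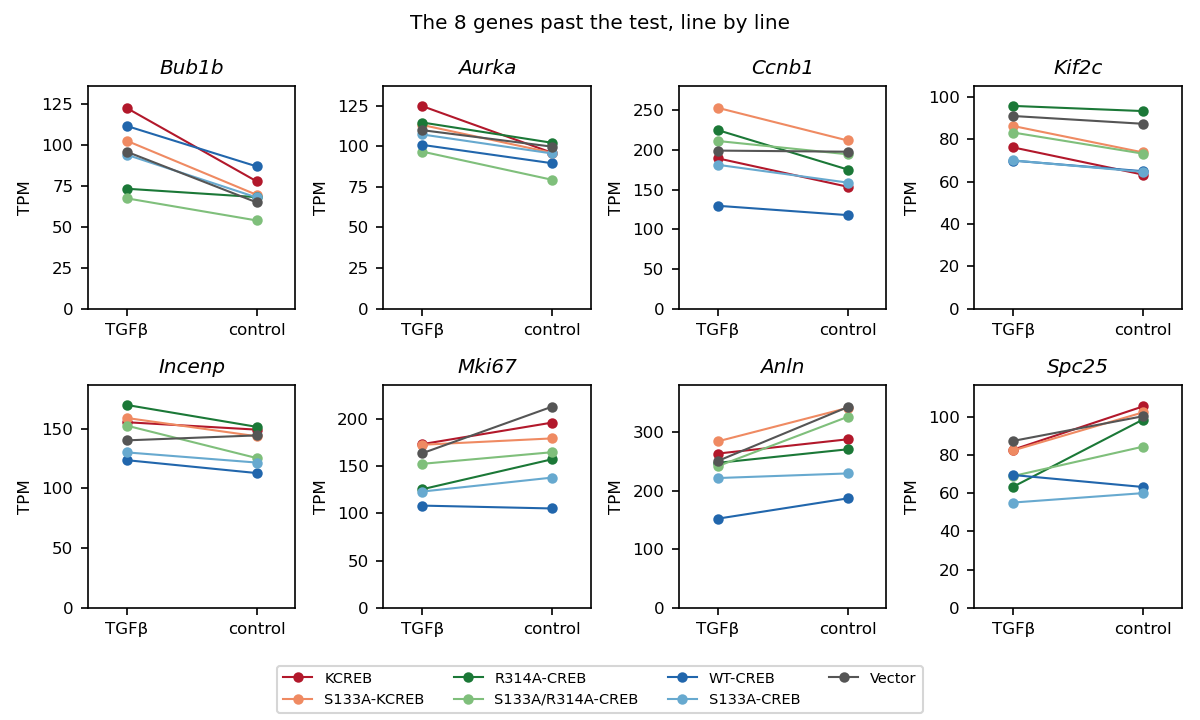
Level (TPM, linear axis from 0) of the 8 genes that passed the test for TGFβ, with the TGFβ library on the left, the control library on the right and a line joining the 2 libraries of each cell line. The joining lines fall to the right in each of the 7 lines for Bub1b, Aurka, Ccnb1 and Kif2c, and rise to the right in each for Anln.

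The lines differed in the balance of these small changes. In Vector 7 of the 39 genes were higher and 32 lower under TGFβ, with a median of −0.10 (log2) against 0.02 over all genes. In S133A-KCREB 31 were higher and 8 lower, with a median of 0.11 against 0.04. The medians were 0.08 in WT-CREB (0 over all genes), 0.06 in KCREB (0.05) and 0.06 in S133A/R314A-CREB (−0.008). They were 0.01 in S133A-CREB (−0.006) and −0.0045 in R314A-CREB (0.02). A change of 1.5-fold was passed by Bub1b in KCREB, which was higher, and by Spc25 in R314A-CREB, which was lower. That is 1 of 39 in each of these lines, against 21.6% and 15.8% of all genes in either direction. In the other 5 lines 0 of the 39 passed, against 16.3% of all genes in Vector, 5.99% in WT-CREB, 10.3% in S133A-CREB, 14.2% in S133A-KCREB and 15.3% in S133A/R314A-CREB. With 1 library per side these values have no test.

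Whether the response to TGFβ depended on the construct was tested over the 6 CREB lines. In limma 0 of the 39 genes passed for the interaction of TGFβ with K, R314A or S133A, as did 0% of all genes in each of the 3 interactions. An unadjusted p under 0.05 was reached by 0 of the 39 in each of them, against 1286, 749 and 476 of all genes. The interaction farthest from 0 was that of Spc25 with R314A, at −0.46 ± 0.19 (interval −0.96 to 0.03, adjusted p = 0.838). The intervals are wide beside the changes under TGFβ given above.

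Further cell cycle genes, taken from lists, were counted in the same way under TGFβ. The shares for all genes, against which each count is read, were 24.1% higher and 21.4% lower, with a median of 0.02, and differences between the lists were not tested. Of 54 further mitosis genes, 16 rose (29.6%) and 5 fell (9.26%), with a median of 0.07. Cks1b, a CDK-binding subunit, averaged 356 ± 50.9 TPM under TGFβ and 263 ± 39.3 TPM in control (SD, n = 7 lines each), a rise of 0.44 ± 0.06 (limma adjusted p = 0.000491). Mybl2, which encodes B-MYB, rose by 0.48 ± 0.07 and Plk4, the kinase of centriole duplication, by 0.29 ± 0.05 (adjusted p = 0.00101 and 0.00252). Fbxo5, the APC inhibitor EMI1, rose by 0.23 ± 0.04 (adjusted p = 0.00285). Of 37 genes of DNA replication and S phase, 19 rose (51.4%) and 3 fell (8.11%), with a median of 0.13. Fen1, the flap endonuclease, rose by 0.28 ± 0.04, and Mcm7, a subunit of the replicative helicase, by 0.27 ± 0.05 (adjusted p = 0.000892 and 0.00179). Tyms, thymidylate synthase, rose by 0.35 ± 0.06 and Ung, uracil DNA glycosylase, by 0.38 ± 0.07 (adjusted p = 0.00215 and 0.00247).

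Among the G1 genes, 18 were tested, of which 4 rose (22.2%, against 24.1% of all genes) and 6 fell (33.3%, against 21.4%), with a median of −0.05. Ccnd1, cyclin D1, averaged 328 ± 132 TPM under TGFβ and 844 ± 340.4 TPM in control (SD, n = 7 lines each), and fell by 1.33 ± 0.14 on the log2 scale (limma adjusted p = 0.000212). The CDK inhibitor genes Cdkn2c and Cdkn2d fell by 0.64 ± 0.06 and 0.42 ± 0.06 (adjusted p = 0.000142 and 0.000925), and Rbl2, the pocket protein p130, by 0.41 ± 0.06 (adjusted p = 0.000682). Of 15 APC genes, 3 rose (20%) and 2 fell (13.3%), each share below that of all genes, with Cdc27 at 0.20 ± 0.04 and Ube2s at 0.19 ± 0.05 among the first, and Anapc13 at −0.73 ± 0.13 and Anapc11 at −0.21 ± 0.06 the others.

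The wider lists were counted against the bZIP state in the same way. All K libraries lay above those with an intact bZIP in 11 of the 54 further mitosis genes (20.4%) and all R314A libraries in 11 (20.4%), with 0 below in each case. Of the 37 replication genes 4 (10.8%) lay above and 4 below for K, and 4 above and 0 below for R314A. Of the 18 G1 genes 1 lay above and 3 below for K, and 2 and 2 for R314A. Of the 15 APC genes 0 lay above and 1 below for K, and 3 (20%) and 1 for R314A. The shares of all genes given above for these counts apply here too. Over the 14 libraries the median of the 39 genes correlated at 0.677 with the median of the further mitosis genes and at 0.156 with that of the replication genes. It correlated at −0.44 with coverage per FPKM and at 0.588 with Creb1, descriptions over libraries of which those of 1 line share their cells.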

How the data were processed

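RNA was sequenced from 14 cultures of αTN4-1 cells, 1 under TGFβ and 1 in control for each of 7 lines, which were taken from the sample titles. The submitters' processing notes name GRCm39, STAR 2.7.6a, StringTie 2.0.4 and edgeR, without their roles. The tables hold TPM as deposited by the authors, FPKM as deposited by the authors and per-base coverage, per the file headers. The sources used here give neither strandedness, annotation release nor read counts, and no model of counts was fitted. Coverage per FPKM is proportional to depth. Gene coordinates are GRCm39, and those of promoter windows GRCm38.p6.

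TPM was taken as log2(TPM + 1), a scale that understates changes of low genes. Genes averaging at least 1 TPM (12927) were fitted with limma 3.58.1 (R 4.3.3, intensity trend), and p-values, two-sided, were adjusted over all of them by Benjamini-Hochberg with a threshold of 0.05. TGFβ was fitted with the line as a block. K, R314A and S133A were fitted on the line means of the 6 CREB lines, and interactions on the differences between treatments. A line's 2 libraries come from the same cells, which pairs them. As a check of the pairing, their deviations from the treatment means correlated at 0.614 to 0.845, against at most 0.371 with other lines. No 2 libraries held the same values. Genes past the test are described with values, and where none passed, up to 3 highest and 3 lowest of one direction in all matched pairs. In each other cell cycle list up to 4 genes with the smallest p for TGFβ are named. The genes and lists were chosen with earlier results of these data known. Promoter sequences are RefSeq's. The 8 genes without a window (Ccna2, Aurkb, Kif20a, Cdc25c, Tpx2, Foxm1, Dlgap5 and Incenp) have no promoter described. Fits were tested on simulated data. Alternatives were other pseudocounts, filters and scalings, FPKM, no trend, no block, single treatments, a random block (statmod 1.5.0) and leaving out each line.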

Additional observations from a re-analysis of the deposited data

How the results depend on the processing

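Without the pairing of a line's libraries (no replicate block), 0 of the 39 genes rose and 0 fell under TGFβ, while 645 of all genes rose and 519 fell, against 3110 and 2762 with it. Leaving out 1 line at a time gave 3 to 8 genes that rose and 1 to 3 that fell. In Vector, KCREB and S133A-KCREB alone, chosen after seeing Creb1, 3 rose and 1 fell. With no filter on low values 1 fell, as the calls of Spc25 and Mki67 were lost, and 5 rose, with Bub1 called (adjusted p = 0.0388) and Incenp not (0.0672), and with quantile normalization 5 fell. Except for the fit without pairing, the shares of all genes called are not given here, so these counts show only how calls among the 39 vary. Bub1b, Aurka, Ccnb1 and Anln kept their call without any single line. Kif2c, Spc25, Mki67 and Incenp each lost it without at least 1 line. For K, 1 gene (Prc1) passed with all 12 CREB libraries and a random block, where 0.317% of all genes were called higher. That fit counts the libraries of a line as partly independent. Counts among the 39 of genes whose libraries lay all above the intact bZIP were recomputed after the data were seen. When a line was left out, they ran from 17 to 28 for K, against 9.69% to 18.1% of all genes. For R314A they ran from 20 to 25, against 9.75% to 20.7%. Control libraries alone gave 21 for K, against 14.6% of all genes, and 25 for R314A, against 17.3%. TGFβ libraries alone gave 22 for K, against 19.4%, and 21 for R314A, against 17.1%. Fewer libraries also raise the share of all genes that do not overlap, for example to 20.7% for R314A without S133A-CREB. Nusap1 in the R314A lines ran from −0.33 to 0.054 without 1 line and was 0.094 with the K and R314A lines together. The cause of these changes was not tested. The tables hold no read counts, so the counting error of each value is unknown.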
